A study of Mus musculus with 8 samples.

Results

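The genes described here are 10 transcription factor genes outside the Hox clusters that set the identity or the segments of a limb: Pitx1, Tbx4, Tbx5, Meis1, Meis2, Shox2, Irx3, Irx2, Sall1 and Evx2. They are 10 of the 55471 gene entries of the table, found by symbol, and all 10 passed the filter on low counts. They were chosen by name with earlier results of these libraries in view, among them the level of Hoxd13 by round and of Tbx4 by genotype. The values below therefore show how these genes behaved in these libraries, and they are no independent evidence that the rounds or genotypes differ. The libraries are RNA sequencing of sorted cells from the femurs of mouse pups aged 3 to 5 days. KO pups are labelled as knockouts of Tet1, a dioxygenase that oxidises methylated cytosine at CpG sites, and WT pups as wild type. Libraries of both genotypes carry the strain name B6;129S4-Tet1tm1.1Jae/J, which names a targeted allele of Tet1, and the labels name no promoter, Cre or further treatment. The 4 groups were KO skeletal stem cells (SSC), WT SSC, KO bone cartilage stromal progenitors (BCSP) and WT BCSP, and each held 2 libraries, numbered round 1 and round 2. What a round is, whether the libraries are separate animals or pools, and the sex of the pups are not given in the sources used here. The p-values thus measure the spread between these samples, which may be technical.

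As background, hindlimb identity is set by Pitx1 and its target Tbx4, while Tbx5 starts forelimb outgrowth and is the usual marker of forelimb tissue. Along the limb, Meis1 and Meis2 mark the segment next to the trunk, and Shox2 is needed for the humerus and femur to lengthen. The hand and foot plate is patterned by Hoxa13, Hoxd12 and Hoxd13. Evx2 lies beside Hoxd13 and shares its digit enhancers, Sall1 is a zinc-finger gene of the outer limb bud, and Irx2 and Irx3 belong to the Iroquois homeobox family, of which Irx3 takes part in forming the mouse hindlimb skeleton.

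Libraries held 104782544 to 168004119 counts, so a level of 1 CPM (counts scaled to a common library size with TMM factors) stands for over 100 counts. Col2a1, the main cartilage collagen, took 24.7 to 30.6% of the counts. Eng, which encodes the surface protein CD105 that is sorted for in BCSP and against in SSC, stood at 2.53 to 3.89 CPM in the SSC libraries and at 25.7 to 50.5 CPM in the BCSP libraries. Tet1, counted over the whole gene, stood at 7.26 and 11.8 CPM in KO SSC against 15.6 and 19.6 CPM in WT SSC, and at 10.8 and 11.97 CPM in KO BCSP against 21.6 and 10.98 CPM in WT BCSP. The library labelled WT BCSP of round 2 thus lay within the KO range, and the counts do not check the genotype label in BCSP. On the first principal component KO BCSP of round 2 had the most extreme score, at 121.75, and on the second WT BCSP of round 2, at 128.46. Values without both libraries are given for some comparisons, and BCSP then holds round 1 only.

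All 10 genes were counted in all 8 libraries. Per length of exon, in TPM (counts per length, scaled to 1 common total per library), the hindlimb genes and Shox2 had the highest mean levels: Pitx1 101.1 ± 15.01 TPM (SD, n = 8), Shox2 75.1 ± 22.7 TPM and Tbx4 32.6 ± 11.7 TPM. Irx3 followed at 19.8 ± 6.84 TPM and Tbx5 at 6.998 ± 2.45 TPM. The lowest 5 were Irx2 at 3.64 ± 3.01 TPM, Meis1 at 2.38 ± 0.997 TPM, Sall1 at 2.25 ± 2.42 TPM, Evx2 at 2.06 ± 1.94 TPM and Meis2 at 1.39 ± 0.755 TPM. Neighbours in this order overlapped over the 8 libraries except Irx3, at 11.6 to 30.6 TPM, and Tbx5, at 4.51 to 11.003 TPM. On the CPM scale, which does not divide by length, Meis1 and Meis2 ranked 6th and 7th, above Irx2, Sall1 and Evx2.

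**Figure D1:**
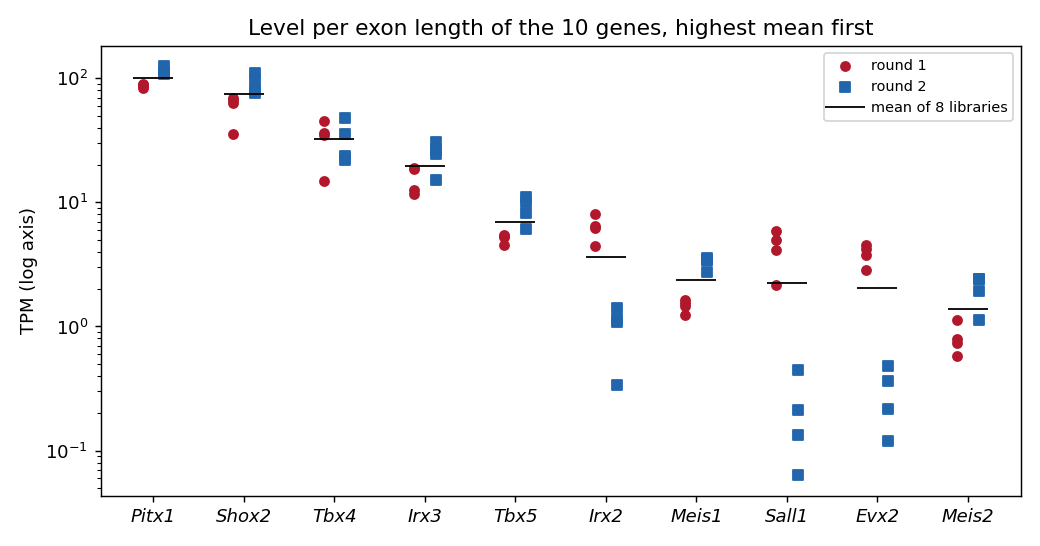
Level of each of the 10 genes in TPM on a log axis, with a point per library (circles for round 1, squares for round 2) and a bar at the mean of 8 libraries. Pitx1 has the highest mean, 101.1 TPM, and Sall1, Evx2 and Irx2 spread widest, with the 4 libraries of round 2 below the 4 of round 1.

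The labelled tissue, femur, can be set beside the fore- and hindlimb genes. Tbx4 exceeded Tbx5 in each library. The ratio of Tbx4 to Tbx5 in TPM was 6.60 and 3.55 in KO SSC against 3.27 and 2.88 in WT SSC, and 8.54 and 4.39 in KO BCSP against 6.63 and 3.58 in WT BCSP (round 1, then round 2). Pitx1 exceeded Tbx5 by 10.8 to 19.7 times. Tbx5 was still counted in each library, with 634 to 1415 counts. What part other tissue has in these Tbx5 counts was not tested.

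The largest differences within groups followed the round. Sall1, Evx2 and Irx2 were several times higher in the 4 libraries of round 1 than in the 4 of round 2, in both cell types and both genotypes. Meis1, Meis2, Tbx5, Shox2, Irx3 and Pitx1 were lower in round 1, and Tbx4 was level. Rounds did not overlap in 9 of the 10 genes, 3 higher and 6 lower in round 1, where 7.62% of the 22153 tested genes did not overlap (3.61% higher and 4.01% lower in round 1). Since genes that differ by round were in view when the 10 were chosen, nothing is read from that count and the round differences carry no test.

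The RefSeq start regions of 3 genes that were high in round 1 and of 1 that was low are printed to show the CG sites they hold, the kind of site at which TET1 can oxidise methylated cytosine. Neither methylation nor TET1 binding was measured here. Each window runs from 250 bases before to 50 bases after the transcript start on build GRCm38.p6 (mm10), with CG in capitals. Evx2 lies at chr2:74659508-74659807 on the minus strand and holds 16 CG. Sall1 lies at chr8:89044113-89044412 on the minus strand and holds 18 CG. Irx2 lies at chr13:72628570-72628869 on the plus strand and holds 25 CG. Meis1 lies at chr11:19018920-19019219 on the minus strand and holds 15 CG.
Evx2: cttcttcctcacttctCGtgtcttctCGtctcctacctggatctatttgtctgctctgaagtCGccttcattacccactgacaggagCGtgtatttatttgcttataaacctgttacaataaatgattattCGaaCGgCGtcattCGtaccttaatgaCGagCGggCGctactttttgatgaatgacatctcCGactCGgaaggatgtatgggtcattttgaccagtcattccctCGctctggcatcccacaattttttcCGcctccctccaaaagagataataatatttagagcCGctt
Sall1: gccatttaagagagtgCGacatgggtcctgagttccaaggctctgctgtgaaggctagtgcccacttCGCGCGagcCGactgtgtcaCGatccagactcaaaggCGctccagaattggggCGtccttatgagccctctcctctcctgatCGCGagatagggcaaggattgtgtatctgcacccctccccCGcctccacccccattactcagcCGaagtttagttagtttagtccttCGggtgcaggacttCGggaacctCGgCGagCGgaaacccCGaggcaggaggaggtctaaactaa
Irx2: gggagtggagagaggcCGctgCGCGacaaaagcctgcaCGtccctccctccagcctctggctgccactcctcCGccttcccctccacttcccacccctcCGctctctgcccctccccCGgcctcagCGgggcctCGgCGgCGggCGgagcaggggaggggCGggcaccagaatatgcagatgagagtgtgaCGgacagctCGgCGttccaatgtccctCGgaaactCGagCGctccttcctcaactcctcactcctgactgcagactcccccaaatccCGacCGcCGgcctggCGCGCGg
Meis1: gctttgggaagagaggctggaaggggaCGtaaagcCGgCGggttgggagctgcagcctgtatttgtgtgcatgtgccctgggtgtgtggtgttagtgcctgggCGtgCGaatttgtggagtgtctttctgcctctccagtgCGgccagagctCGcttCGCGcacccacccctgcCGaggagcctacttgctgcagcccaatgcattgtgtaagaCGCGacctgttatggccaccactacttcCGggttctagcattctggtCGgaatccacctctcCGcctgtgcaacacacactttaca

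The table of start regions held 8 of the 10 genes. With 1 window used per gene, the windows of these 8 had 8 to 25 CG each, all above the median of 7 over the 32851 windows of the table. Further windows of Sall1, which were not used, held 27 and 39 CG. The start in the window of Tbx4 lies 10343 bases from the GENCODE start of the gene, and that of Meis2 1220 bases. A window with at least the 16 CG of Evx2 was found at 33.0% of them, and one with at least the 25 CG of Irx2 at 18.4%. The core motif of MEIS proteins, TGACAG on either strand, was found in 1 of the 8 windows, that of Evx2, and in 19.2% of all windows. These letters are a description of the sequence.

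Sall1, the zinc-finger gene of the outer limb bud, showed the widest gap. In round 1 it stood at 4.96 CPM in KO SSC, 2.83 in WT SSC, 7.66 in KO BCSP and 5.90 in WT BCSP. In round 2 it stood at 0.075 CPM in KO SSC, 0.162 in WT SSC, 0.509 in KO BCSP and 0.349 in WT BCSP. Each library of round 1 was above each of round 2, with a mean of 5.34 ± 2.01 CPM in round 1 against 0.274 ± 0.194 CPM in round 2 (SD, n = 4 each). That is a 19.5-fold ratio, log2 4.29, and the ratio within a group ran from log2 3.91 in KO BCSP to 6.04 in KO SSC. The lowest library, KO SSC of round 2, rests on 10 counts of Sall1.

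Evx2, the neighbour of Hoxd13, followed the same split at 4.33 CPM in KO SSC, 2.97 in WT SSC, 3.88 in KO BCSP and 3.93 in WT BCSP of round 1. In round 2 it stood at 0.451, 0.116, 0.328 and 0.279 CPM in the same order of groups. The means were 3.78 ± 0.574 CPM in round 1 against 0.293 ± 0.139 CPM in round 2 (SD, n = 4 each), a 12.9-fold ratio, log2 3.69. Evx2 (chr2:74652991-74659557) and Hoxd13 (chr2:74668310-74671599) lie 8752 bases apart with 0 annotated genes between them. Hoxd13 averaged 24.8 ± 4.11 CPM in round 1 against 0.181 ± 0.153 CPM in round 2. In KO BCSP of round 2 Hoxd13 had 0 counts. Counting strand is not stated, so reads of antisense transcripts at this locus cannot be told apart from those of the genes.

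Irx2 stood at 4.85 CPM in KO SSC, 3.61 in WT SSC, 6.53 in KO BCSP and 4.61 in WT BCSP of round 1, and at 1.04, 0.825, 0.812 and 0.342 CPM in the same order in round 2. The means were 4.899 ± 1.21 CPM in round 1 against 0.754 ± 0.294 CPM in round 2 (SD, n = 4 each), a 6.50-fold ratio. Irx1, of the same family, averaged 4.53 ± 1.20 CPM in round 1 against 0.593 ± 0.358 CPM in round 2. Irx3 went the other way: it averaged 10.1 ± 2.67 CPM in round 1 against 15.9 ± 2.51 CPM in round 2. Irx3 and Sall1 sit on chromosome 8, 2.75 Mb apart with 43 genes between them, and differed in direction. The 3 genes high in round 1 pass a 4-fold ratio of means without overlap, as did 0.668% of tested genes, a share that is again no support.

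Meis1 and Meis2, the markers of the segment next to the trunk, were lower in round 1. Meis1 stood at 3.55 CPM in KO SSC, 4.06 in WT SSC, 3.22 in KO BCSP and 3.90 in WT BCSP of round 1, and at 8.09, 8.60, 7.76 and 8.95 CPM in the same order in round 2. All 4 groups moved by nearly the same amount, with a mean of 3.68 ± 0.374 CPM in round 1 against 8.35 ± 0.528 CPM in round 2, log2 -1.18, and an SD of 0.077 over the 4 group ratios in log2. Meis2 stood at 2.04 CPM in KO SSC, 2.37 in WT SSC, 1.71 in KO BCSP and 3.08 in WT BCSP of round 1, against 5.26, 6.70, 6.30 and 4.18 CPM in round 2. Its mean was 2.30 ± 0.582 CPM in round 1 against 5.61 ± 1.13 CPM in round 2, log2 -1.29.

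Tbx5, the forelimb gene, averaged 5.70 ± 0.358 CPM in round 1 against 9.85 ± 1.17 CPM in round 2, and its highest library of round 1, 6.12 CPM in KO BCSP, was below its lowest of round 2, 8.85 CPM in WT SSC. Shox2 averaged 46.1 ± 11.8 CPM in round 1 against 73.4 ± 11.9 CPM in round 2, log2 -0.67. Pitx1 averaged 55.5 ± 4.05 CPM in round 1 against 74.5 ± 13.2 CPM in round 2, log2 -0.42, and WT BCSP of round 2 was the highest library at 93.9 CPM. Its ratio within a group was log2 -0.90 in WT BCSP and -0.28 to -0.20 in the other groups. Leaving out 1 library gave -0.48 to -0.29. In TPM the highest Pitx1 library was KO BCSP of round 2, at 124.9 against 114.1 in WT BCSP of round 2. The other hindlimb gene, Tbx4, averaged 26.4 ± 10.5 CPM in round 1 against 26.1 ± 7.16 CPM in round 2, log2 0.015, and was the only gene of the 10 whose rounds overlapped in CPM. On the TPM scale the rounds overlapped also for Irx3, at 11.6 to 18.9 TPM in round 1 and 15.2 to 30.6 in round 2, and for Meis2, at 0.578 to 1.14 TPM in round 1 and 1.12 to 2.43 TPM in round 2. On that scale the rounds did not overlap in 7 of the 10 genes, where 6.98% of 21633 tested genes with a length did not, and nothing is read from that count either.

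**Figure D2:**
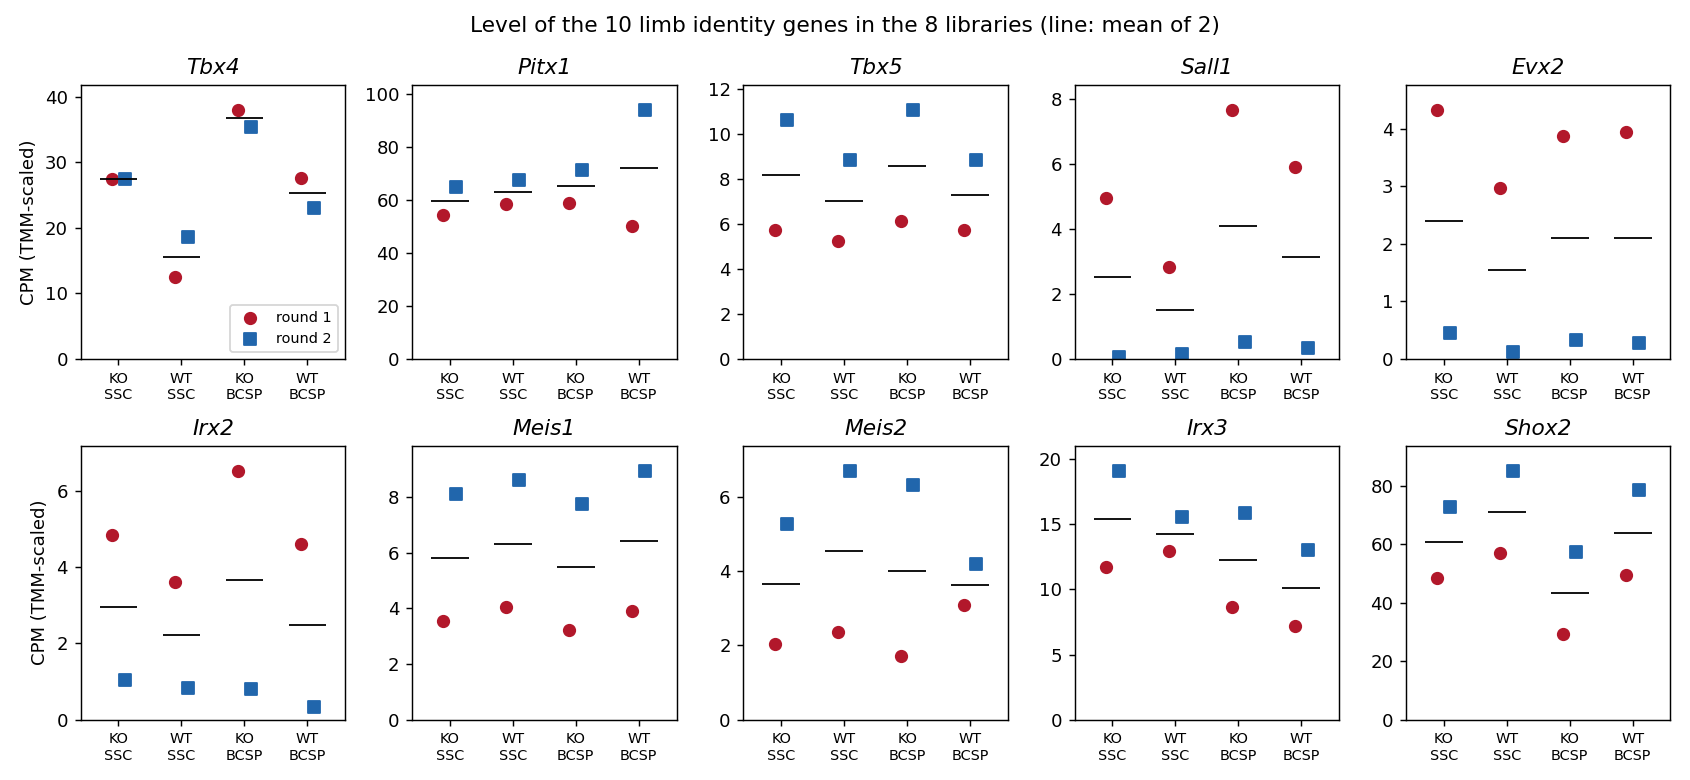
CPM of each of the 10 genes in the 4 groups, with KO left of WT, a circle for the library of round 1, a square for that of round 2 and a line at the mean of both. Sall1, Evx2 and Irx2 have all circles above all squares, and Meis1 and Tbx5 all squares above all circles. In Tbx4 KO lies above WT within each cell type.

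The round split divided related limb genes in the same libraries. Of the 5 Hox genes listed from groups 12 and 13, 3 were higher in round 1 without overlap (Hoxd13, Hoxd12 and Hoxa13). Hoxa13 averaged 8.38 ± 3.43 CPM in round 1 against 1.70 ± 0.454 CPM in round 2. The other 2 genes of that list of 5, Hoxc12 and Hoxc13, were lower in round 1, with Hoxc12 at 2.20 ± 0.500 CPM in round 1 against 7.27 ± 2.62 CPM in round 2. Of the 3 group 11 genes Hoxa11 and Hoxd11 were higher and Hoxc11 lower, and of the 6 genes of groups 9 and 10 Hoxd10 was higher and Hoxc9 and Hoxc10 lower. Among 8 tested genes of groups 4 to 6, which mark the forelimb level of the trunk, 0 were higher and 3 (Hoxc4, Hoxc5 and Hoxc6) lower, with Hoxc6 at 3.30 ± 0.668 CPM in round 1 against 7.15 ± 1.20 CPM in round 2. In these Hox lists the genes without overlap were lower in round 1 if of the Hoxc cluster and higher if of Hoxa or Hoxd. Among 42 tested genes of 46 other limb transcription factors, 7 were higher and 5 lower without overlap, and the median log2 ratio was -0.04, where all tested genes had -0.02. Tbx3, a T-box gene of the limb margins, was among the lower, at 3.997 ± 0.739 CPM in round 1 against 9.91 ± 1.83 CPM in round 2. Of 22 tested genes of the 28 limb signals and retinoic acid genes, 0 were higher and 1 (Grem1) lower in round 1, with a median log2 ratio of -0.08.

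**Figure D3:**
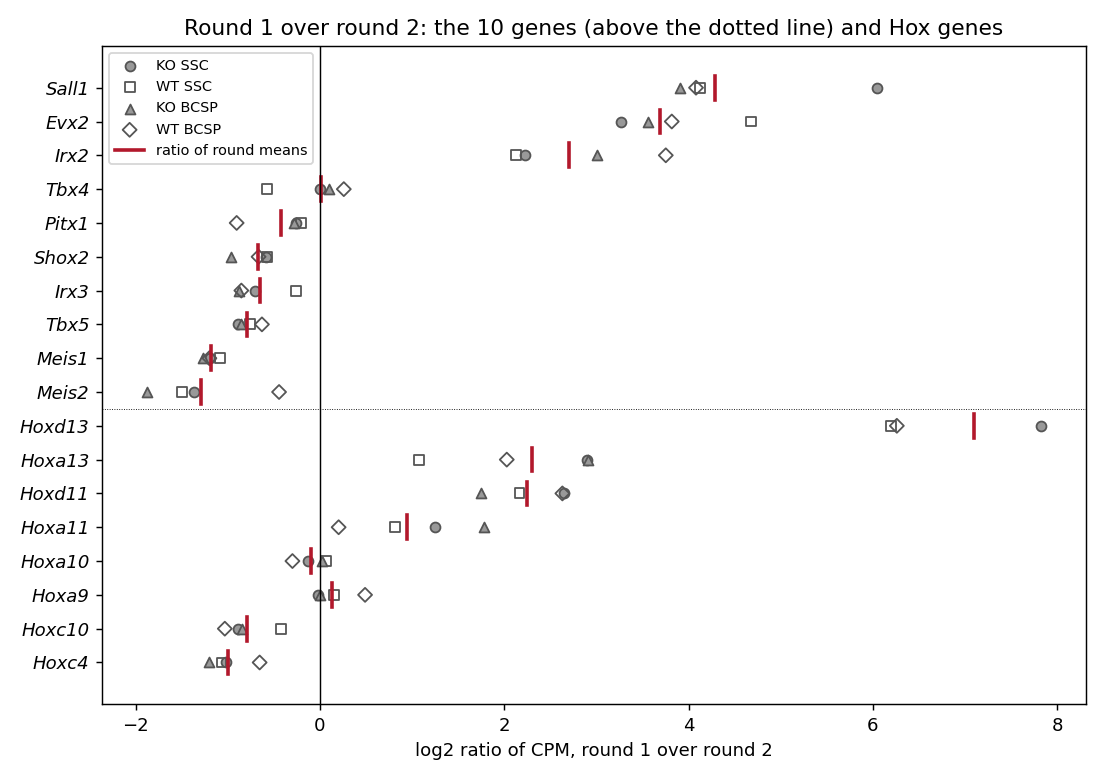
Log2 ratio of CPM, round 1 over round 2, within each of the 4 groups (symbols) and of the round means (red bars), for the 10 genes above the dotted line and 8 Hox genes below it. Sall1, Evx2 and Irx2 lie right of 0 with Hoxd13 and Hoxa13, and Meis1 and Meis2 lie left of it with Hoxc4 and Hoxc10; Hoxd13 has no symbol for KO BCSP, where round 2 had 0 counts.

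Markers of other cells also moved with the round. The 6 hypertrophic cartilage genes summed to 451 to 1320 CPM in round 1 and 358 to 598 CPM in round 2, with 3 of 6 (Mmp13, Ibsp and Alpl) higher without overlap. The 6 osteoblast genes summed to 1837 to 2981 CPM in round 1 and 1687 to 2408 CPM in round 2, with 2 of 6 higher. The 10 leukocyte genes, of which 9 were tested, summed to 10.9 to 150 CPM in round 1 and 5.09 to 6.41 CPM in round 2, with 4 higher and 1 lower, and the 8 erythroid genes, of which 7 were tested, to 5.49 to 41.2 CPM in round 1 and 2.45 to 5.43 CPM in round 2, with 2 higher. Egr1 of the 6 tendon genes and Sox5 of the 10 cartilage genes were lower in round 1 without overlap. Cd200 of the 7 tested sort markers was higher in round 1 without overlap. Rounds overlapped for each tested gene of the joint surface, endothelial, skeletal muscle, skin, nerve, and pericyte and smooth muscle lists. Endothelial genes summed to 3.18 to 6.43 CPM, muscle genes to 5.96 to 24.01 CPM, skin genes to 5.91 to 16.8 CPM, nerve genes to 7.50 to 12.7 CPM and pericyte genes to 826 to 1223 CPM, and the muscle gene Myf5 had 0 counts in all libraries. Fewer cells of a type and less RNA per cell cannot be told apart in such bulk samples, and the part of these markers in the round differences was not tested.

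The series asks how cells without Tet1 differ from wild type. Of the 10 genes, 0 passed an edgeR quasi-likelihood test at an adjusted p under 0.05 in SSC, in BCSP, over both cell types, or for the difference of the KO effects. The background is as low: 0.00451% of tested genes passed in SSC, 0.00451% in BCSP, 0.0135% over both cell types and 0% for the difference. Tbx4 was the gene nearest to the threshold and higher in KO, and Shox2 had the lowest fold change of the 10 over both cell types. At an unadjusted p under 0.05, 1 of the 10 (Tbx4) stood in SSC, in BCSP and over both, and 0 for the difference, where 1.2%, 6.18%, 7.91% and 1.27% of all tested genes did. With the round added to the fit these were 2, 2, 2 and 0 of the 10, where 2.05%, 9.23%, 11% and 1.53% of tested genes did.

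Tbx4 (chr11:85886422-85916097, plus strand) stood at 27.5 CPM in KO SSC of both rounds, against 12.5 and 18.6 CPM in WT SSC of rounds 1 and 2. In BCSP it stood at 38.0 and 35.4 CPM in KO, against 27.6 and 23.1 CPM in WT. KO and WT did not overlap within a cell type, and the 4 pairs within a round had log2 ratios of 1.14, 0.57, 0.46 and 0.62 (SSC rounds 1 and 2, then BCSP). The edgeR log2 fold change over both cell types was 0.68 ± 0.16 (SE), with an adjusted p of 0.395 and an unadjusted p of 0.001. It was 0.82 ± 0.24 in SSC, with an edgeR adjusted p of 1, and 0.53 ± 0.24 in BCSP, with an edgeR adjusted p of 0.686. The difference of both effects was 0.29 ± 0.34 (edgeR adjusted p = 0.9999). Tbx4 passed over both cell types under 2 other settings, as 1 of the 10 genes: with DESeq2 the adjusted p was 0.0345, where 0.494% of genes were called, and with edgeR without a filter on low counts it was 0.0197, where 0.706% were called. Leaving out any single library kept the fold change between 0.55 and 0.77, and without both BCSP libraries of round 2 it was 0.70. The level of Tbx4 by genotype was in view when the genes were chosen, so these p-values are no independent support.

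Other measures moved with Tbx4. The 7 joint surface cartilage genes, led by the lubricin gene Prg4, summed to 447 to 1323 CPM in KO and 374 to 742 CPM in WT. Of the 7, 6 had log2 fold changes above 0 over both cell types and 0 passed, with a median of 0.50. Of the 7 pericyte and smooth muscle genes 6 were also above 0, with a median of 0.59. Their sums were 954 to 1112 CPM in KO and 826 to 1223 CPM in WT, and KO and WT sums overlapped in both lists. Other lists moved as well. Above 0 were 6 of 7 tested endothelial genes (median 1.68) and 5 of 6 tendon genes (median 0.06). Below 0 were 6 of 7 nerve genes (median -0.69). Of all tested genes 51.6% were above 0. Acta1, the skeletal muscle actin gene, had the opposite sign, at -1.93 ± 0.37 (edgeR adjusted p = 0.217), and the muscle genes summed to 5.96 to 10.5 CPM in KO and 8.91 to 24.01 CPM in WT. The muscle list was mixed: of 5 tested genes 3 were above 0 and 2 below, with a median of 1.42. Across the 8 libraries Tbx4 correlated with Prg4 at r = 0.79, with Erg at 0.93 and with Gdf5 at -0.26, as a description of libraries that share rounds and groups. Ddx3y, a gene of the Y chromosome, stood at 62.1 to 92.2 CPM in KO and 23.2 to 39.7 CPM in WT, and Xist, of female cells, at 74.9 to 291 CPM in KO and 277 to 621 CPM in WT, so that RNA of both sexes was counted in each library. The part of joint surface, pericyte or muscle cells, or of the sex of the pups, in the Tbx4 values was not tested.

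Shox2 (chr3:66971727-66981771) stood at 48.5 and 72.8 CPM in KO SSC of rounds 1 and 2, against 57.1 and 85.2 CPM in WT SSC, and at 29.3 and 57.3 CPM in KO BCSP against 49.5 and 78.5 CPM in WT BCSP. KO lay below WT in each of the 4 pairs, though the ranges overlapped across rounds. The edgeR log2 fold change was -0.40 ± 0.24 over both cell types (adjusted p = 0.664), -0.23 ± 0.35 in SSC and -0.56 ± 0.35 in BCSP. Leaving out KO BCSP of round 1 gave -0.14 in BCSP and -0.20 over both cell types, and leaving out KO BCSP of round 2 gave -1.09 and -0.57. In SSC it became 0.03 without KO SSC of round 1 and 0.09 without WT SSC of round 2. Leaving out 1 library makes the rounds uneven between KO and WT, so these shifts cannot be told apart from the round. The pairs within a round had log2 ratios of -0.24 and -0.23 in SSC and -0.76 and -0.45 in BCSP. With the round added to the fit the fold change was -0.23 ± 0.21 in SSC and -0.60 ± 0.21 in BCSP.

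Tbx5 and Irx2 were also higher in KO in each of the 4 pairs within a round, as Tbx4 was, and Meis1 was lower in each, as Shox2 was. That is 3 of 10 genes higher in all pairs, where 10.6% of tested genes were, and 2 of 10 lower in all, where 9.86% were. For Tbx5 the edgeR log2 fold change over both cell types was 0.23 ± 0.27, and for Irx2 it was 0.49 ± 1.03. For Meis1 it was -0.17 ± 0.37 and for Meis2 -0.08 ± 0.44. Pitx1, the partner of Tbx4 in hindlimb identity, had -0.11 ± 0.19, and Irx3 had 0.19 ± 0.24. Sall1 with 0.57 ± 1.67 and Evx2 with 0.31 ± 1.42 had the largest errors, and each group holds a library of either round. Of the 10 genes only Tbx4 and Shox2 had errors below the size of their values. In all, 6 of the 10 genes were above 0 over both cell types, with a median of 0.21, where 51.6% of tested genes were above 0 with a median of 0.02. In SSC 6 of 10 were above 0 (median 0.16, all genes 51.3% and 0.01) and in BCSP 7 of 10 (median 0.19, all genes 50.5% and 0.01).

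**Figure D4:**
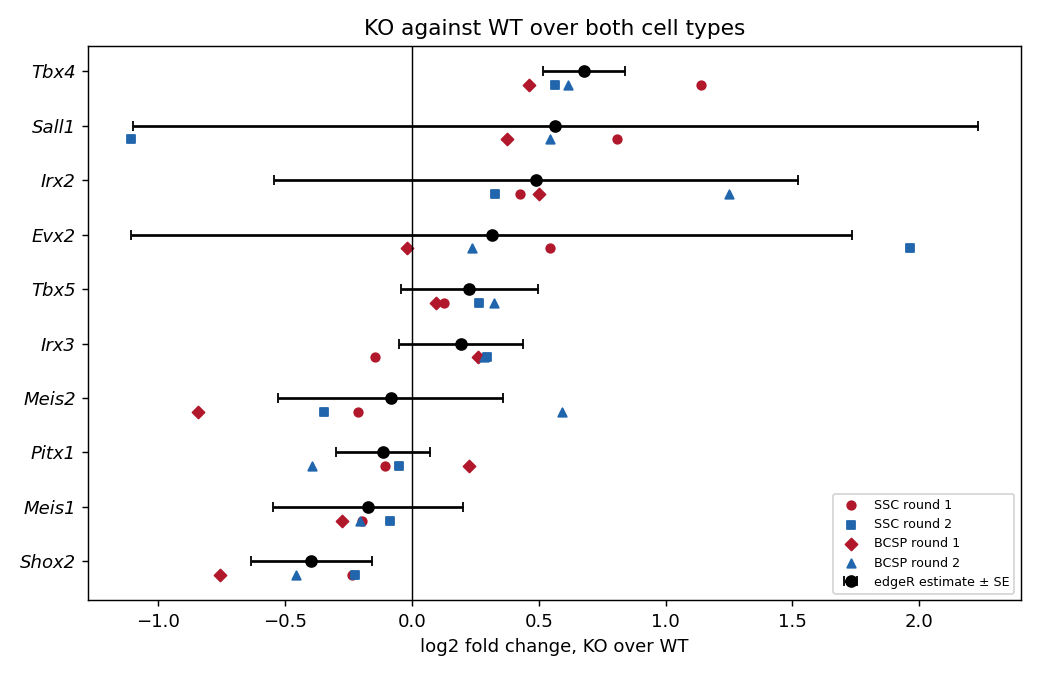
Log2 fold change of KO over WT for the 10 genes, with the edgeR estimate over both cell types and its SE (black) and the ratio of CPM in each of the 4 pairs of one cell type and round (coloured). The 4 points of Tbx4 lie between 0.46 and 1.14, and the wide bars belong to Sall1, Irx2 and Evx2.

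Among the other limb genes and the marker lists, 0 genes passed for genotype in any of these comparisons by edgeR. Over both cell types 25 of 42 tested limb transcription factors were above 0 and 17 below, with a median log2 fold change of 0.15, and 13 of 22 limb signals were above 0, with a median of 0.08. The genes with the smallest p over both cell types were Alx1, a homeobox gene of skull and limb mesenchyme, Meis3, the relative of Meis1 and Meis2, and the T-box gene Tbx2. Alx1 had -1.78 ± 0.46 (edgeR adjusted p = 0.475), Meis3 had 1.49 ± 0.43 (edgeR adjusted p = 0.596) and Tbx2 had 0.92 ± 0.32 (edgeR adjusted p = 0.613). In SSC alone the smallest p belonged to Bmp4, Meis3 and Alx1, in BCSP alone to Hoxb6, Alx1 and Lmx1b, and for the difference of the effects to Hoxb6, Fgf10 and Msx2.

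SSC and BCSP are successive stages by their sorting scheme, and the comparison shows how the limb factors stood in each. By edgeR 0 of the 10 genes passed, where 0.00451% of tested genes did, a share that is Eng alone. Tbx4 was lower in SSC than in BCSP in each of the 4 pairs of one genotype and round: 27.5 and 27.5 CPM in KO SSC against 38.0 and 35.4 CPM in KO BCSP, and 12.5 and 18.6 CPM in WT SSC against 27.6 and 23.1 CPM in WT BCSP. Its log2 fold change was -0.56 ± 0.16 (edgeR adjusted p = 0.893, unadjusted p = 0.0039), and it was 1 of 10 genes at an unadjusted p under 0.05, where 3.71% of tested genes were. With the round added to the fit, 4 of 10 were (Sall1, Tbx4, Irx3 and Shox2), where 5.04% of tested genes were. The joint surface genes summed to 374 to 1006 CPM in SSC and 723 to 1323 CPM in BCSP, with 6 of 7 below 0. All 6 tendon genes were below 0 as well, with a median of -0.39, and summed to 7976 to 9254 CPM in SSC and 8652 to 11319 CPM in BCSP. All 5 tested muscle genes were above 0, with a median of 0.67, and so were all 6 skin genes, with a median of 0.64. Of all tested genes 51.8% were above 0. The part of these markers in the Tbx4 difference was not tested.

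Irx3 and Shox2 were higher in SSC in each of the 4 pairs. Irx3 stood at 11.7 and 19.1 CPM in KO SSC against 8.62 and 15.8 CPM in KO BCSP, and at 12.96 and 15.5 CPM in WT SSC against 7.19 and 12.99 CPM in WT BCSP. The log2 fold change was 0.42 ± 0.24 for Irx3 and 0.32 ± 0.24 for Shox2, both with an edgeR adjusted p of 1. Without both BCSP libraries of round 2 the log2 fold change was 0.91 for Irx3, 0.78 for Shox2 and -1.80 for Sall1. BCSP then held round 1 only, where Irx3 and Shox2 were lower and Sall1 higher. These 3 values thus cannot be told apart from the round. With all 8 libraries, 2 of 10 genes were higher in all pairs, where 7.4% of tested genes were. Lower in all pairs were 3 of 10 (Tbx4, Tbx5 and Sall1), where 6.62% were. For Tbx5 these differences were small, with a log2 fold change of -0.06 ± 0.27. Sall1 had -0.88 ± 1.67, Irx2 -0.24 ± 1.03, Pitx1 -0.16 ± 0.19, Evx2 -0.13 ± 1.42, Meis2 0.09 ± 0.44 and Meis1 0.03 ± 0.37. In all 4 of 10 were above 0, with a median of -0.10, where 51.8% of tested genes were above 0. The hypertrophic cartilage genes summed to 367 to 1320 CPM in SSC and 358 to 692 CPM in BCSP, with 5 of 6 above 0. Across the 8 libraries all 6 of them correlated negatively with Irx3 (r -0.67 to -0.19) and with Shox2 (r -0.81 to -0.04), as a description. Mmp13, Ibsp and Alpl were higher in round 1 without overlap in CPM, and Irx3 and Shox2 lower. For Col10a1, Ihh and Spp1 the rounds overlapped. These correlations run over both rounds and both cell types, which were not separated in them. The part of hypertrophic cartilage in the Irx3 and Shox2 values was not tested. Of the other limb genes 0 passed, and the smallest p belonged to the signals Bmp7, at 0.78 ± 0.17 (edgeR adjusted p = 0.475), and Wnt5a, at 0.79 ± 0.21 (edgeR adjusted p = 0.823), and to Pknox2, a homeobox relative of the Meis genes, at -0.52 ± 0.16 (edgeR adjusted p = 0.964).

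**Figure D5:**
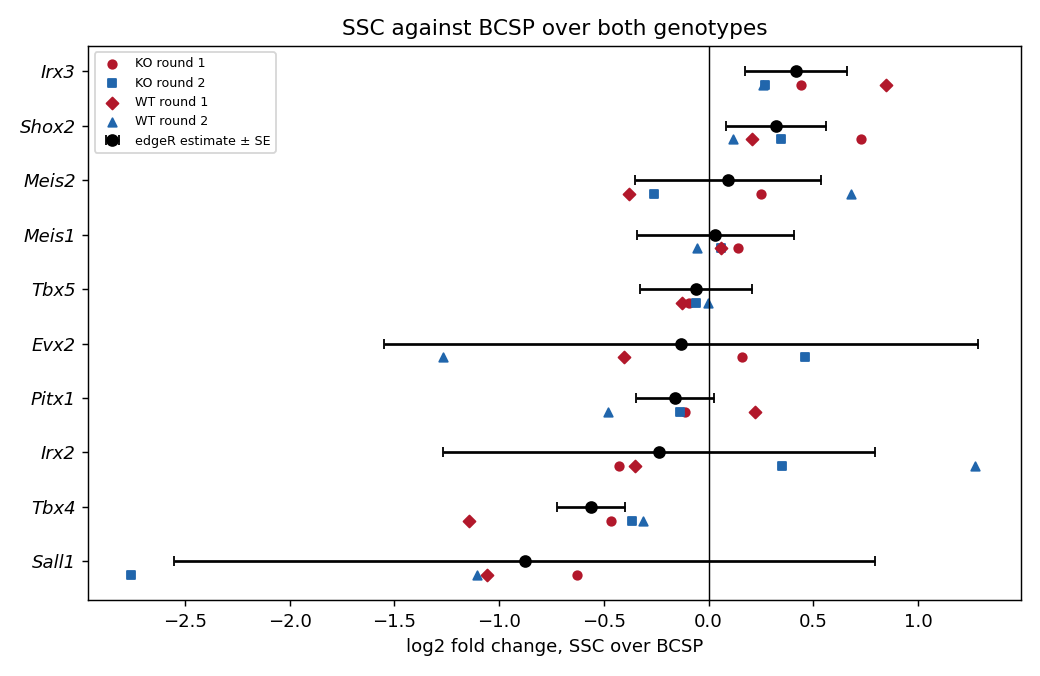
Log2 fold change of SSC over BCSP for the 10 genes, with the edgeR estimate over both genotypes and its SE (black) and the ratio of CPM in each of the 4 pairs of one genotype and round (coloured). Irx3 and Shox2 have all 4 points right of 0, and Tbx4 and Sall1 all 4 left of it.

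The genes whose log2 CPM was most like that of each of the 10 over the 8 libraries were named by Pearson correlation among 12639 genes of at least 1 CPM. For the genes high in round 1 they were Gdf10, Zfp367 and Thap1 for Sall1 (r 0.973 to 0.976), Ccn2, Abhd17c and Cd55 for Evx2 (r 0.964 to 0.992), and Lats2 and Gnai3 for Irx2 (r 0.996 and 0.979). For those low in round 1 they were Mt1, Foxf1 and Jun for Meis1 (r 0.977 to 0.993), Sox11, Itpr2 and Neto2 for Meis2 (r 0.978 to 0.984), and Mpzl2, Hs6st1 and Gja1 for Tbx5 (r 0.987 to 0.989). Tbx4 was most like Tmem26, Plpp3 and Pdgfra (r 0.960 to 0.984), Pitx1 like Gm6451, Mpst and Carhsp1 (r 0.967 to 0.975), Irx3 like Gm26887, Preb and Dusp4 (r 0.961 to 0.974) and Shox2 like Fgg, Mmp19 and Mlf1 (r 0.980 to 0.987). The least alike were Mt1 for Irx2 (r -0.984), Ccn2 for Meis1 (r -0.987), Smtn for Meis2 (r -0.984), Rspo3 for Tbx5 (r -0.980), Prelp for Tbx4 (r -0.965), Terf1 for Pitx1 (r -0.986), Chmp1b for Irx3 (r -0.993) and Cys1 for Shox2 (r -0.962). For Evx2 the least alike of all was another of the 10 genes, Meis1, at r = -0.969. Within the 10, Evx2 and Irx2 correlated at 0.93, Meis1 and Meis2 at 0.92, and Irx2 and Meis1 at -0.97, while Tbx4 stayed between -0.50 (Shox2) and 0.28 (Tbx5). The 8 libraries share 2 rounds, so these values describe the libraries and carry no test.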

How the data were processed

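RNA sequencing of 8 libraries was analysed, 2 for each of 4 groups, with paired reads of 150 bases per the labels. The deposited table holds raw counts per gene. STAR, featureCounts and DESeq2 were used with build mm10, per the submitters' processing notes, with no versions given, while the name of the table mentions htseq. Which program made the counts, its annotation and the strand counted are not given in the sources used here, so counts of overlapping or near-identical genes are uncertain. Columns headed SCC were taken to be SSC libraries, and those headed BCP to be BCSP libraries. Of 55471 entries 54573 matched GENCODE release M21 by versioned ID, which gave positions and exon lengths for TPM.

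Counts were scaled by TMM and filtered by filterByExpr (minimum count 10, minimum total 15), leaving 22153 genes with 99.9854% of counts. The quasi-likelihood test of edgeR 4.0.16 (R 4.3.3) used all 8 libraries and robust estimation, in a model of the 4 groups (4 residual degrees of freedom) or of cell type plus genotype (5), and p-values were adjusted by Benjamini-Hochberg over all tested genes, with a threshold of 0.05. The additive fit treats SSC and BCSP libraries as independent. The common biological coefficient of variation was 0.525. SE is the log2 fold change over the root of F. DESeq2 1.42.0, limma-voom 3.58.1, no filter, other size factors, a replicate block and leaving out each library served as alternatives, and the fit was tested on simulated counts. Tables and figures used Python 3.11.15, numpy 2.4.6, pandas 2.3.3, scipy 1.17.1 and matplotlib 3.10.9.

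The 10 genes and the gene lists were chosen with earlier results of these data known. From the lists of limb and Hox genes as 1 pool, the text names per comparison the 3 genes with the smallest p, and by round the 3 with the largest ratio each way among genes of at least 1 CPM, with a pseudocount of 0.01 CPM. For each of the 10, the 3 most alike genes and the least alike are named, except 1 for Irx2 and 1 for Sall1 that are not reported here. Other list genes are named by count or as the members of a small list, and Prg4, Erg, Gdf5, Ddx3y and Xist were named after their values were seen. RefSeq start regions were matched by symbol, and for Sall1, with several, the one at the GENCODE start was used.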

Additional observations from a re-analysis of the deposited data

How the results depend on the processing

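The number of genes passing depended on the setting, and the cause was not tested. Without a filter on low counts 4 genes passed for genotype in SSC, 38 in BCSP and 234 over both cell types, and 66 between SSC and BCSP. With DESeq2 these counts were 9, 20, 103 and 39, and both settings called 1 of the 10 genes, Tbx4, over both cell types. With limma-voom 1 gene passed over both cell types, and with only the 4 libraries of the cell type 0 passed in SSC by edgeR (the reduced fit has fewer samples). Without both BCSP libraries of round 2, chosen after seeing the data, 11 genes passed over both cell types and 36 between SSC and BCSP. That setting turned the log2 fold changes of Pitx1 to 0.024 for genotype and of Tbx5 and Pitx1 to 0.36 and 0.17 between SSC and BCSP. It leaves BCSP with round 1 only, where Tbx5 and Pitx1 were lower. Its results between SSC and BCSP thus cannot be told apart from the round.

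Round numbers were checked for pairing. The correlation of the round difference between groups ran from 0.0234 to 0.240, so the numbers were not taken to pair the libraries. It was above 0 for each pair of groups, and 9 of the 10 genes did not overlap between the rounds in CPM. The main fit, without the round, thus holds the round differences in its errors. With the round as a replicate block 2 genes passed in SSC, 3 in BCSP, 28 over both, 2 for the difference and 2 between SSC and BCSP, 0 of them among the 10. The adjusted p over both was 0.165 for Tbx4 and 0.326 for Shox2 by edgeR with the block, and the unadjusted p of Shox2 was 0.0099. At an unadjusted p under 0.05 the block put 2 of the 10 genes in SSC (Tbx4, Evx2), 2 in BCSP and 2 over both (Tbx4, Shox2), 0 for the difference, and 4 between SSC and BCSP (Sall1, Tbx4, Irx3, Shox2), where 2.05%, 9.23%, 11%, 1.53% and 5.04% of tested genes were. Between SSC and BCSP Sall1 was then at -1.22 ± 0.32, with an edgeR unadjusted p of 0.0021 and an adjusted p of 0.397. Irx2 between SSC and BCSP turned to 0.16 with the block and to 0.20 with limma-voom.

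Leaving out each library in turn gave 1 to 4 genes in SSC, 1 to 2 in BCSP, 1 to 12 over both cell types and 1 to 3 between SSC and BCSP. Over both cell types the count was 11 without KO SSC of round 1, 12 without WT SSC of round 2 and 10 without WT BCSP of round 1, and 1 without KO SSC of round 2, WT SSC of round 1 or KO BCSP of round 1. In SSC it was 4 without WT SSC of round 2, in BCSP 2 without KO BCSP of round 2, and between SSC and BCSP 3 without WT SSC or WT BCSP of round 2 and 2 without KO BCSP of round 2. Each of these fits leaves the rounds uneven between the groups compared, so the ranges below also hold the round differences. The log2 fold change of Shox2 ran from -0.57 to 0.091 in SSC, from -1.09 to -0.14 in BCSP and from -0.57 to -0.20 over both cell types. Over both cell types Tbx5 ran from 0.04 to 0.40, Pitx1 from -0.27 to 0.10, Sall1 from -0.83 to 1.68, Evx2 from -0.62 to 1.41, Irx2 from -0.32 to 1.39, Irx3 from -0.012 to 0.36, Meis1 from -0.45 to 0.12 and Meis2 from -0.60 to 0.33. Between SSC and BCSP Irx3 ran from 0.25 to 0.65, Shox2 from 0.15 to 0.51, Tbx5 from -0.24 to 0.15, Pitx1 from -0.31 to 0.055, Sall1 from -2.30 to 0.22, Evx2 from -1.08 to 0.96, Irx2 from -0.78 to 0.66, Meis1 from -0.23 to 0.33 and Meis2 from -0.32 to 0.63. Of 340 values of single genes under an alternative, 291 kept their direction and their side of the threshold, 47 changed sign and 2, both of Tbx4, passed where they had not.

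Of 120 round ratios 119 stayed within 1 SD of the 4 group ratios, and the exception was Sall1 at log2 5.49 without both BCSP libraries of round 2. The 5 changes of sign were all of Tbx4, whose ratio is near 0. By Spearman correlation 11 of the 30 most alike genes were among the top 3, and by CPM in place of TPM 5 of the 10 genes held the same rank in the order of levels. At over 100 counts per CPM, depth limits mainly Sall1 and Evx2 in round 2, with 10 to 62 and 15 to 60 counts.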
